A study of Danio rerio with 6 samples.

Results

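The pineal gland of adult zebrafish was compared between mid-night and mid-day by sequencing of poly-A RNA, with 1 library from each time. A gene was included when its level reached at least 5 FPKM (read counts scaled to gene length and to the reads of the library) in the higher of the 2 pineal libraries. This held for 11753 of the 32105 genes measured, in 2 of the 6 libraries of the study. The night library came from a pool of 18 glands taken at ZT18, in the middle of the dark phase, and the day library from a pool of 18 glands taken at ZT6, in the middle of the light phase (ZT counts hours from lights on). All fish were transgenic Tg(aanat2:EGFP) animals aged 0.5 to 1.5 years and lived under a cycle of 12 h light and 12 h darkness. The regulatory regions of aanat2 drive EGFP in this line, and its fluorescence in the pineal gland guided dissection under a microscope, so each pool holds whole glands with whatever other cells came with them. The other 4 libraries were night and day pools of 6 whole eyes, and night and day mixtures of equal RNA from brain, heart, liver, kidney, intestines, gill, muscle and ovary. Night and darkness coincide in this design, as do day and light, and cannot be told apart.

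The zebrafish pineal gland senses light directly, through photoreceptor cells that also make melatonin and carry their own circadian clock. In vertebrate clocks, CLOCK and BMAL proteins switch on period, cryptochrome and Rev-erb genes, whose products feed back as repressors, while ROR receptors act on the same bmal1 control sites as Rev-erb. Melatonin is made from tryptophan by hydroxylation, decarboxylation, acetylation and methylation, and acetylation by AANAT is the step that follows the daily rhythm most closely. Cyclic AMP and the transcription factor CREB are a classical route to night-time transcription in the rodent pineal gland.

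The reads behind the FPKM values came to 7949224 in the night pineal library and 11045259 in the day pineal library, with 13418642 to 15950819 in the other 4. The label was checked against pineal markers, of which exorh, otx5 and gngt1 matched no symbol and are not covered under these names. The other symbols matched 13 genes, some by a shared symbol. These summed to 12745 FPKM in the night and 10512 FPKM in the day pineal library. In the night and day libraries they summed to 3891 and 4023 FPKM in the eye and 6.09 and 6.95 FPKM in the mixed organs. One of them, an ARR3 gene (ENSDARG00000098475), was rare in the pineal gland at night and by day (0.869 and 1.64 FPKM) but not in the eye (168 and 92.8 FPKM). Lens crystallins, which would show eye tissue, summed to 31.2 and 26.5 FPKM in the night and day pineal libraries, against 7821 and 14222 FPKM in the night and day eye, and 24 of the 55 were listed at 0 in both pineal libraries. All 13 genes of the mitochondrial genome were listed at 0 in every library. Symbols in capitals are those of the human gene in the name table, and some are shared by several zebrafish genes, told apart here by their ID. Since each time has 1 pool, no difference below has a replicate check or a test. Differences are given as night minus day on the log2(FPKM + 1) scale. Fold values are ratios of FPKM with a 95% exact (Clopper-Pearson) interval from the recovered reads, which covers counting error only. Counts and medians over a gene list cover its measured members, those that reached 5 FPKM in at least 1 pineal library, and are descriptions, since a member that reached it at 1 time alone had to differ. In pooled tissue, fewer cells of a type and less RNA per cell cannot be told apart.

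Most genes had similar levels in both pineal libraries. The median difference over the 11753 genes was -0.03, the middle 95% lay between -1.07 and 0.98, and 5475 genes were above 0 and 6278 below. A 2-fold difference or more was found in 628 genes (5.34%): 280 had the higher level at night (2.38%) and 348 the lower (2.96%). These shares are the base for every list count below. Counts by fold size used the log2(FPKM + 1) difference, which at low levels is smaller in size than the ratio of FPKM. On that scale the balance turned with size. At 1.5-fold, 886 genes were higher and 1235 lower at night, whereas at 8-fold 20 were higher and 10 lower. At 32-fold 4 were higher and none lower on this scale. As a ratio of FPKM some genes were lower by more than that, among them nfil3-5 (36.6-fold lower) and PKHD1L1, given further below. Abundant genes differed more often: 17 of the 79 genes at 500 FPKM or more were at least 2-fold apart (21.5%), against 4.22% of genes between 5 and 10 FPKM. Of the 280 higher genes, 111 reached 5 FPKM only in the night library, and of the 348 lower genes 138 only in the day library. The interval of the ratio lay wholly past 2-fold in 199 higher and 210 lower genes. Just inside the level threshold stood CXXC1 (ENSDARG00000101996) with 4.24 and 5.004 FPKM at night and by day, and just outside it ZFP64 (ENSDARG00000061147) with 4.998 and 3.71 FPKM.

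**Figure D1:**
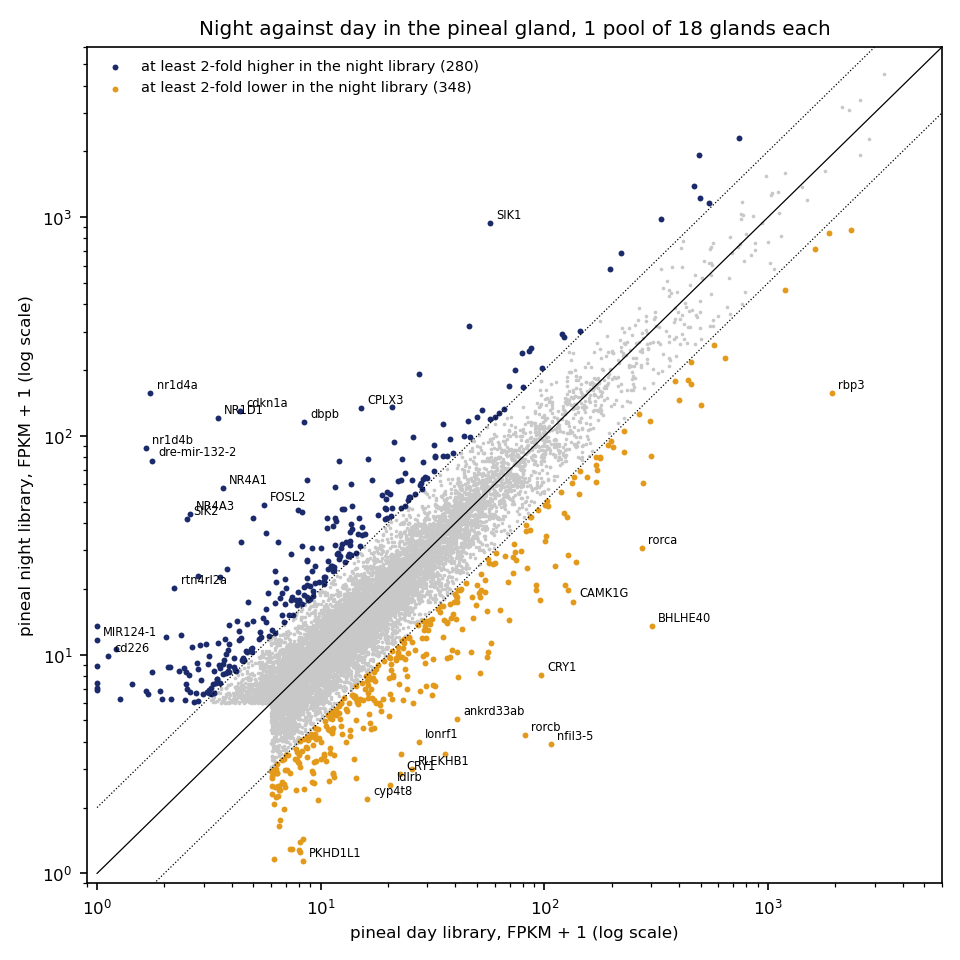
Level of each of the 11753 genes in the night pineal library (vertical axis) and the day pineal library (horizontal axis), as FPKM + 1 on log scales. The solid line marks equal levels and the dotted lines a 2-fold difference; 280 genes lie above the upper line and 348 below the lower one. Most of the 15 highest and 15 lowest differences with a gene symbol are named, from nr1d4a at 6.50 to nfil3-5 at -4.78 (log2).

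Clock genes held the largest differences in both directions. Of 38 genes in 4 clock lists that reached 5 FPKM, 27 were at least 2-fold apart (71.1%, beside 5.34% of all genes), 9 higher and 18 lower at night. Only 4 of 5 activators, 9 of 14 repressors, 5 of 10 receptors and 7 of 9 D-box factors reached 5 FPKM in both libraries. The rest reached it at 1 time alone and had to differ. Over all 11753 genes, 631 reached it only at night and 828 only by day. The lists were chosen with earlier results of these data known. The highest were the Rev-erb genes, nuclear receptors that repress bmal1. nr1d4a (ENSDARG00000031161) was at 156 FPKM in the night library and 0.729 FPKM in the day library, a 214-fold ratio (interval 131 to 375). nr1d4b (ENSDARG00000059370) was at 86.8 and 0.656 FPKM at night and by day, 132-fold higher (83.6 to 224). NR1D1 (ENSDARG00000033160) was at 119.6 FPKM at night and 2.48 FPKM by day. Other Rev-erb genes differed less: nr1d2a had 82.2 and 40.8 FPKM (difference 0.99), and NR1D2 (ENSDARG00000009594) was lower at night, with 37.5 and 59.7 FPKM.

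The ROR receptors, activators at the sites that Rev-erb proteins occupy, stood on the opposite side. rorcb (ENSDARG00000017780) had 3.296 FPKM at night and 81.1 FPKM by day, 24.6-fold lower (21.7 to 28.05), and rorca (ENSDARG00000057231) 29.7 and 272 FPKM, 9.16-fold lower. rorab was at 7.22 and 50.3 FPKM, and RORA (ENSDARG00000031768) at 1.96 and 6.09 FPKM. RORB, with 9.15 and 14.5 FPKM, was within 2-fold (-0.61). Out of 10 nuclear receptors, the night level was thus 2-fold higher or more in 3 and lower in 4.

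Of 5 measured activators of the clock loop, 3 were at least 2-fold lower at night and the other 2 were below 0. npas2 (ENSDARG00000016536) was at 9.24 FPKM at night and 39.5 FPKM by day, a difference of -1.98. BMAL1 is the symbol of 2 genes, which stood at 8.65 and 35.8 FPKM (ENSDARG00000006791, -1.93) and at 5.93 and 23.2 FPKM (ENSDARG00000035732, -1.80). The partner CLOCK differed by less than 2-fold in both of its genes, -0.27 for ENSDARG00000003631 and -0.38 for ENSDARG00000011703.

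The repressors were split: of 14, 4 had at least a 2-fold higher level and 8 at least a 2-fold lower one. On the higher side were one PER1 gene (ENSDARG00000056885), at 11.3 FPKM at night and 1.38 FPKM by day, and ciartb, at 31.6 and 5.47 FPKM. BHLHE41 was also higher, at 39.9 and 10.6 FPKM, and so was ciarta, at 10.9 and 3.41 FPKM. The other PER1 gene (ENSDARG00000012499) had 8.06 and 9.61 FPKM, a difference of -0.23, so the 2 PER1 genes were unlike each other. CRY2 was also within 2-fold, at 19.4 and 24.96 FPKM.

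On the lower side, BHLHE40 (ENSDARG00000004060), a repressor at E-box sites, had 12.6 FPKM at night and 301 FPKM by day, 23.98-fold lower (21.3 to 27.1). Its paralogue BHLHE41 had the opposite sign. PER2, a gene known to be switched on by light in zebrafish, had 9.33 and 54.9 FPKM, 5.89-fold lower (5.31 to 6.54). The cryptochromes with the symbol CRY1 were 13.5-fold lower (ENSDARG00000045768, 7.05 and 95.4 FPKM) and 11.8-fold lower (ENSDARG00000011583, 1.83 and 21.6 FPKM). cry3a was at 145 and 399 FPKM, cry3b at 19.8 and 123 FPKM and cry4 at 3.596 and 16.4 FPKM. PER3 had 3.23 FPKM at night and 12.5 FPKM by day.

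The D-box factors, which carry the rhythm to other genes, included 2 of 9 measured genes at least 2-fold higher and 3 lower at night, with a median of 0.18. Among the activators, dbpb (ENSDARG00000057652) was at 115 and 7.398 FPKM at night and by day, 15.6-fold higher (14.1 to 17.2), and dbpa at 30.7 and 10.5 FPKM. tefa, at 140.4 and 124 FPKM, and tefb, at 58.03 and 45.2 FPKM, stayed within 2-fold, as did HLF at 72.5 and 40.1 FPKM (0.84). The related hlfa was at 88.9 and 147 FPKM, a difference of -0.72. Among the repressors, nfil3-5 (ENSDARG00000094965) had 2.905 FPKM at night and 106 FPKM by day, 36.6-fold lower (30.02 to 45.1) and the lowest difference of the rule for named genes. nfil3-6 had 59.6 and 276 FPKM and NFIL3 4.24 and 19.2 FPKM. Thus 3 of 3 measured NFIL3 genes were lower at night, but nfil3-5 and NFIL3 reached 5 FPKM only by day and had to be. Genes of clock protein turnover differed little: 1 of 10 passed 2-fold, fbxl3b with 7.55 and 16.7 FPKM, and the list's median was -0.08.

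**Figure D2:**
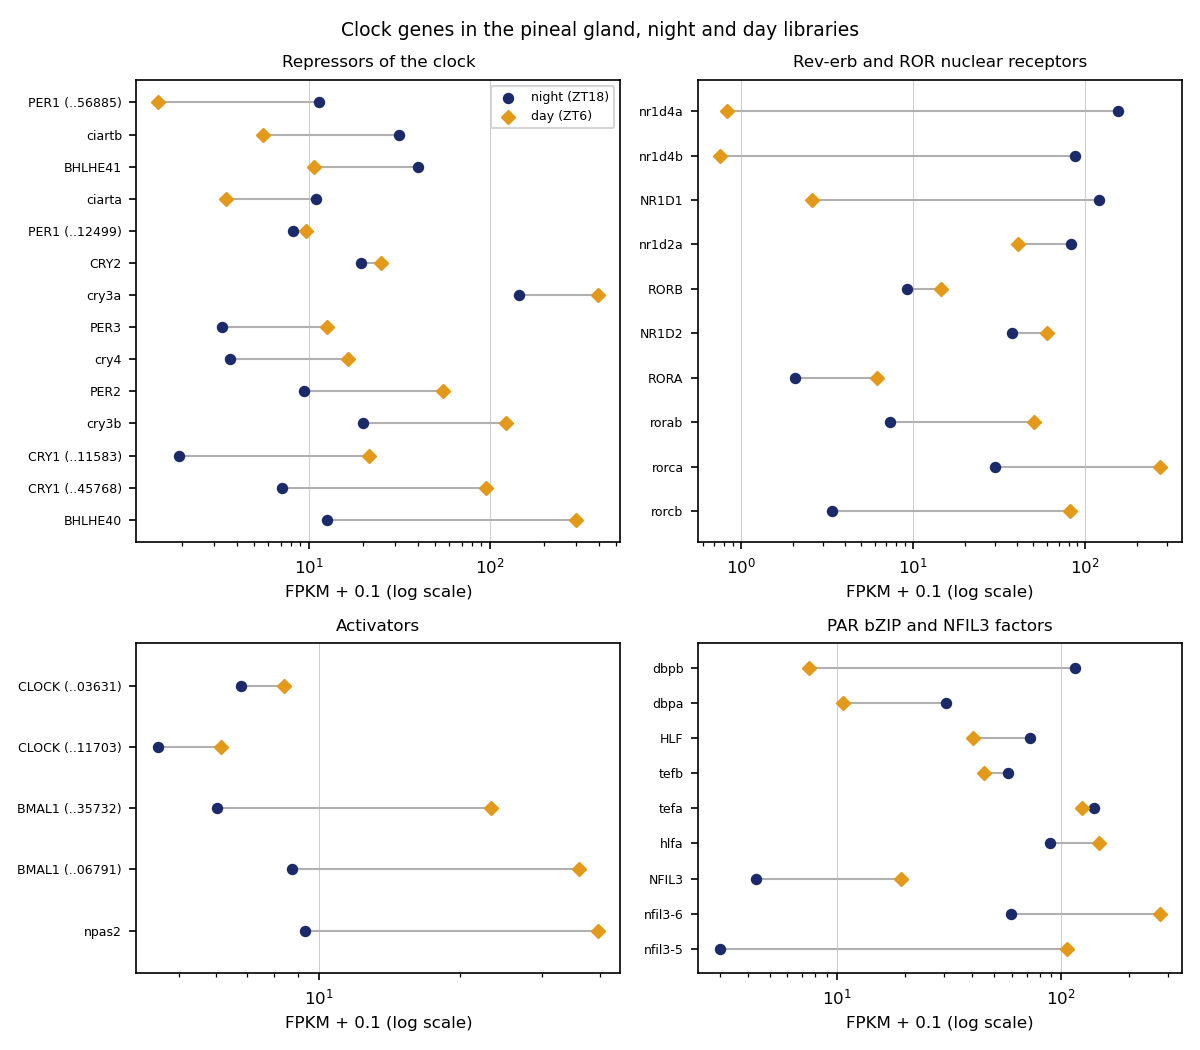
FPKM + 0.1 on a log axis for the 38 clock genes that reached 5 FPKM, with the night library as blue circles and the day library as orange diamonds, joined for each gene. Each panel is ordered by the difference; Rev-erb genes nr1d4a, nr1d4b and NR1D1 are far higher at night, while rorca, rorcb, nfil3-5 and BHLHE40 are far lower. Where 2 genes share a symbol, the last digits of the gene ID follow it.

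Most genes of melatonin synthesis were more abundant at night. Of 6 measured genes, 4 were at least 2-fold higher and none lower, with a median of 1.07 beside -0.03 over all genes. The listed symbol aanat1 matched no gene and is not covered. TPH1 (ENSDARG00000029432), a tryptophan hydroxylase, had 2290.1 FPKM at night and 743 FPKM by day. The second hydroxylase, TPH2, had 1304 and 1107 FPKM, 1.18-fold higher (1.16 to 1.199). By day TPH2 was thus the more abundant hydroxylase in FPKM, and at night TPH1. DDC, the decarboxylase that yields serotonin, was at 299.6 and 143 FPKM, 2.098-fold higher (2.04 to 2.16). The acetyltransferase gene aanat2 (ENSDARG00000079802) was at 1922 FPKM at night and 491 FPKM by day, the largest difference of the list (1.97). For the final methylation, ASMT (ENSDARG00000098249) was slightly lower at night, at 2283 and 2814 FPKM, whereas the much rarer asmt2 was 2.22-fold higher (20.8 and 9.34 FPKM). The list took up 2.15% of all FPKM at night and 1.38% by day.

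Tetrahydrobiopterin is the cofactor of the tryptophan hydroxylases, and of 9 measured genes of its supply 3 had a night level at least 2-fold higher and none a lower one, with a median of 0.47. GCH1 (ENSDARG00000070453), which opens the pathway, was at 978 FPKM at night and 333 FPKM by day. PTS, the next enzyme, was at 90.03 and 30.96 FPKM, and PCBD1, which regenerates the cofactor, at 121 and 59.1 FPKM. The remaining 6 genes stayed within 2-fold, among them the reductases SPR (ENSDARG00000004406, 15.7 and 14.3 FPKM) and QDPR (ENSDARG00000040190, 56.9 and 40.9 FPKM). The second GTP cyclohydrolase gene gch2 was at 3.26 and 6.19 FPKM (-0.76), and another QDPR gene (ENSDARG00000037378) differed by -0.35.

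The methyl donor that ASMT uses gave a different picture. MAT2A (ENSDARG00000040334), which makes S-adenosylmethionine, was nearly level at 943 FPKM at night and 938 FPKM by day (ratio 1.0051, interval 0.991 to 1.02). AHCY (ENSDARG00000005191), which removes the S-adenosylhomocysteine left by methylation, was lower at night at 463 and 1192 FPKM, 2.58-fold (2.51 to 2.65). BHMT and MTR, which return homocysteine to methionine, were lower as well, at 8.504 and 22.8 FPKM and at 1.93 and 5.01 FPKM. MAT1A alone of the 17 measured members was at least 2-fold higher, at 5.298 and 1.15 FPKM, and 3 were lower. Of 7 genes of serotonin transport and breakdown, SLC18B1, a vesicular polyamine carrier, passed 2-fold (27.9 and 12.3 FPKM), while the monoamine oxidase gene mao had 49.5 and 64.7 FPKM. The amino acid carrier SLC7A5 and its heavy chain SLC3A2 were abundant and close to level, with differences of -0.20 and 0.45.

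Genes of the cAMP and CREB pathway were higher at night wherever they differed by 2-fold. Of 31 measured members, 8 were higher and none lower, beside 2.38% and 2.96% of all genes, with a median of 0.39. Among the 8, cremb and one SIK2 gene (ENSDARG00000079618) reached 5 FPKM only at night and had to be above 0. The salt-inducible kinases, which restrain CREB through its coactivators, led the list. SIK1 (ENSDARG00000058606), itself a CREB target, was at 936 FPKM at night and 56.2 FPKM by day, 16.6-fold higher (16.1 to 17.2), and was among the most abundant genes that differed. One of the genes with the symbol SIK2 (ENSDARG00000079618) had 40.6 and 1.53 FPKM, 26.6-fold higher, while the other (ENSDARG00000062315) had 21.8 and 19.3 FPKM. SIK3 was at 24.3 and 15.7 FPKM. The CREM genes, whose short forms repress cAMP targets, were at 77.6 and 15.2 FPKM (crema) and at 7.34 and 0.761 FPKM (cremb).

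The phosphodiesterases PDE4D and PDE4B, which break down cAMP, were at 41.1 and 9.62 FPKM and at 30.9 and 11.5 FPKM at night and by day. Of the subunits of protein kinase A, the catalytic prkacaa had 130.2 and 51.9 FPKM and the regulatory PRKAR2A (ENSDARG00000033184) 131 and 65.1 FPKM, both at least 2-fold higher. The others that were measured stayed within 2-fold, among them the catalytic prkacab at -0.18 and the regulatory PRKAR1A at 0.60. CREB1 (ENSDARG00000093420) and its coactivators differed by less than 2-fold, CREB1 by 0.26 and CRTC1 by -0.06. The adenylyl cyclase genes with the symbol ADCY1 differed by 0.15 (ENSDARG00000088634) and -0.68 (ENSDARG00000069026).

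Immediate early genes, which follow CREB and other signals within minutes, were partly higher at night. Of 33 measured members, 10 were at least 2-fold higher and 1 lower, beside 2.38% and 2.96% of all genes, with a median of 0.52. Only 24 of the 33 reached 5 FPKM in both libraries. Of the higher genes, NR4A3, NR4A1, FOSL2, NPAS4, FOSB and egr4 reached it only at night and had to be above 0. The lower gene, a JUNB gene, reached it only by day and had to be below 0. FOS, given further below, is not counted, because the listed symbol fosab matched no gene. The orphan receptor genes NR4A3 (ENSDARG00000055854) and NR4A1 (ENSDARG00000000796) were 26.9-fold (42.9 and 1.59 FPKM) and 21.4-fold higher (56.9 and 2.66 FPKM). FOSL2 was at 47.3 and 4.58 FPKM, NPAS4 (ENSDARG00000055752) at 21.8 and 1.82 FPKM and the phosphatase gene DUSP1 at 190 and 26.5 FPKM. JUND was higher (28.1 and 10.9 FPKM), but JUN was at 23.7 and 38.2 FPKM and one JUNB gene (ENSDARG00000074378) was lower, at 4.28 and 10.7 FPKM. Other genes of the class stayed within 2-fold, such as egr1 (0.71), ATF3 (0.52) and IER5 (-0.86). Cytosolic heat shock genes did not move with them: 0 of 22 were 2-fold apart and their median was 0.00. Neither did the 26 measured genes of endoplasmic reticulum stress, with 0 past 2-fold and a median of 0.07.

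**Figure D3:**
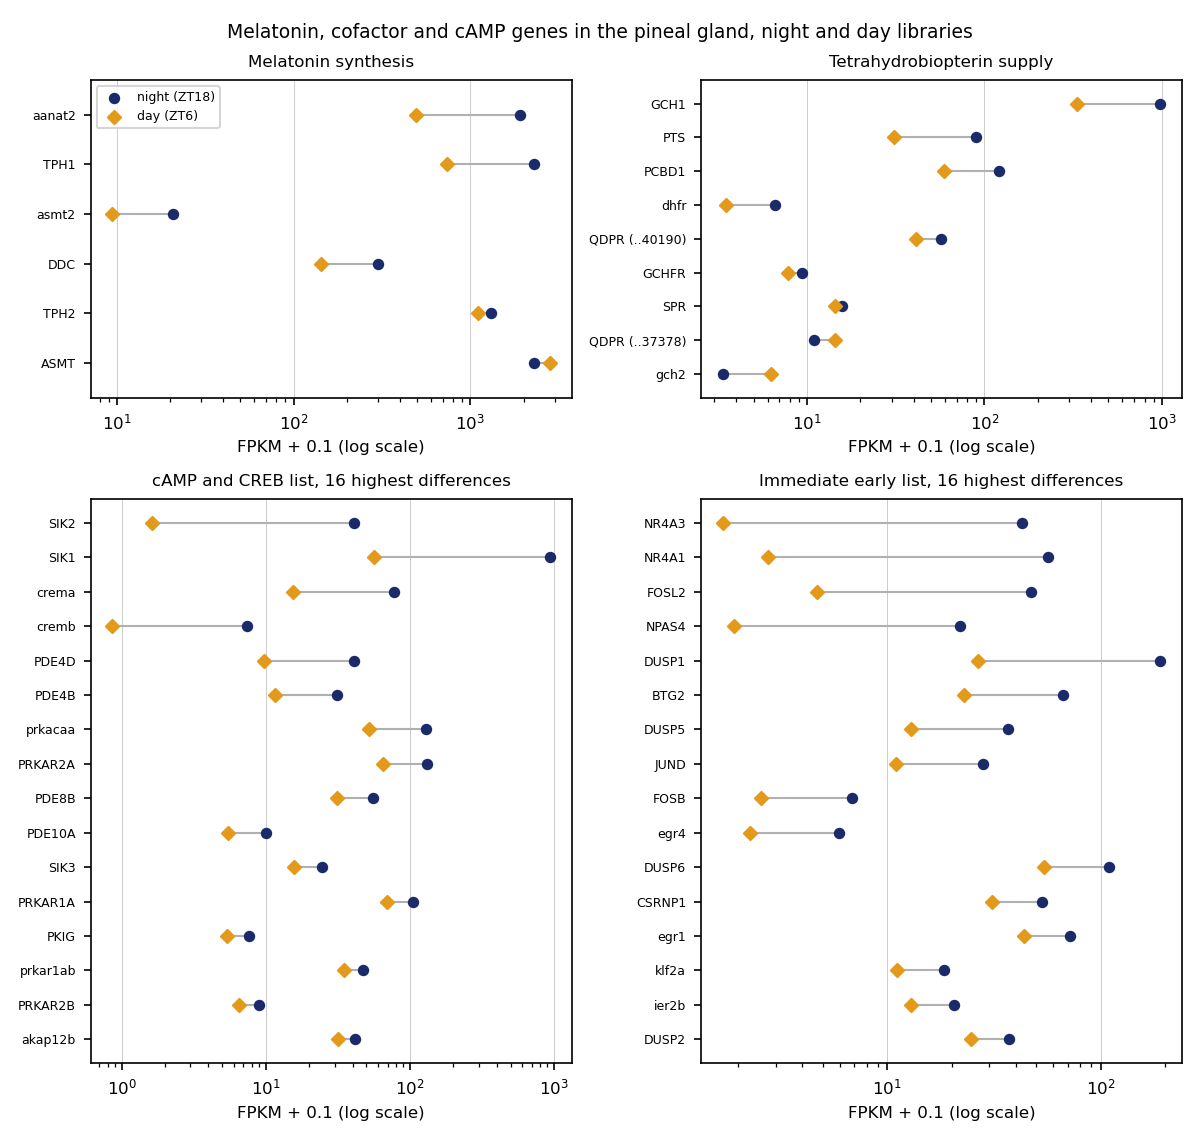
FPKM + 0.1 on a log axis in the night (blue circles) and day (orange diamonds) pineal libraries for the measured genes of melatonin synthesis and tetrahydrobiopterin supply and for the 16 highest differences of the cAMP and immediate early lists. The lower panels were picked by their values and show only the higher side of lists of 31 and 33 genes. ASMT is the exception in its panel, with the night circle left of the day diamond.

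Genes of light detection were mostly level, with a few large exceptions. Over 50 genes of the phototransduction cascade the median was 0.03, with 1 at least 2-fold higher and 4 lower. The abundant transducin gene GNAT1 was at 3085 and 2309 FPKM at night and by day, and arrestin ARR3 (ENSDARG00000056511) at 1369 and 1416 FPKM. PDE6H, an inhibitory subunit of the cone phosphodiesterase, was higher at 1223 and 494 FPKM, while its relative pde6ha was lower at 14.95 and 62.02 FPKM. The arrestin gene sagb (226 and 641 FPKM), the recoverin gene RCVRN (ENSDARG00000009637, 714 and 1622 FPKM) and guca1c, a guanylyl cyclase activator (6.26 and 30.8 FPKM), were lower at night. Its relative guca1aa, which is outside the list and was picked after its values were seen, was higher at 1391 and 465 FPKM (2.99-fold, 2.93 to 3.06). In the eye guca1aa was at 316 FPKM at night and 61.3 FPKM by day.

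Of 14 measured opsins, 3 were at least 2-fold lower and none higher, beside 2.96% and 2.38% of all genes, with a median of -0.54. Not covered are exorh, opn1sw1, parapinopsina, opn4.1, opn7b, tmtopsa and va2, which were listed but matched no symbol. parietopsin, known from the lizard parietal eye, was at 53.3 and 141 FPKM, and tmtops2a at 32.04 and 99.7 FPKM. The red cone opsin genes differed from each other, opn1lw1 with 318 and 569 FPKM (-0.84) and opn1lw2 with 243 and 200.4 FPKM (0.28).

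Retinoid carriers were among the most abundant genes that were lower at night. In this list of 37, 6 were at least 2-fold lower and 1 higher, with a median of -0.18. rbp3 (ENSDARG00000059163), which carries retinoids between cells in the retina, was at 156 FPKM at night and 1925 FPKM by day, 12.3-fold lower (11.9 to 12.8). The retinol-binding genes rbp4l and RBP4 were at 877 and 2346 FPKM and at 137 and 503 FPKM, and STRA6, the receptor for retinol-binding protein in mammals, at 260.1 and 573 FPKM. CYP27C1, which in zebrafish turns vitamin A1 into A2, was at 27.6 and 127 FPKM. The enzymes of chromophore regeneration were closer to level, RPE65 (ENSDARG00000007480) at 765 and 567 FPKM and LRAT at 323 and 419 FPKM. One RDH8 gene (ENSDARG00000105060), a retinol dehydrogenase, was higher at 135 and 19.9 FPKM, while a second (ENSDARG00000028048) had 269 and 264 FPKM.

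The transcription factors that define photoreceptor and pineal fate were mostly close to level. crx (ENSDARG00000011989) was at 315 and 326 FPKM at night and by day, NR2E3 at 221 and 213 FPKM and OTX2 at 91.3 and 73.4 FPKM. bsx (ENSDARG00000068976) was at 778 and 417 FPKM (0.90). Of 24, none was at least 2-fold higher and 2 were lower, SIX3 (ENSDARG00000054879, 6.72 and 15.9 FPKM) and ankrd33ab (ENSDARG00000002508), a gene with ankyrin repeats, at 4.07 and 39.8 FPKM. In the ribbon synapse list, CPLX3 (ENSDARG00000089486), a complexin that holds vesicles ready for release, was 9.36-fold higher (132 and 14.2 FPKM), and rims2a was at 17.6 and 8.22 FPKM. The other 21 of 23 stayed within 2-fold, and the median was 0.26.

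Genes that respond to light and repair DNA were lower where they differed by 2-fold. Of 17, 4 were lower and none higher, beside 2.96% and 2.38% of all genes, with a median of -0.39. Only 14 of the 17 reached 5 FPKM in both libraries, and the rest reached it only by day and had to be below 0. lonrf1 (ENSDARG00000078567) was at 2.99 and 26.4 FPKM, the photolyase gene cpdp at 7.95 and 17.1 FPKM, cry-dash at 3.63 and 10.4 FPKM and the DNA glycosylase gene NEIL1 at 6.27 and 15.2 FPKM. In the cell cycle, cdkn1a (ENSDARG00000076554), an inhibitor of cyclin-dependent kinases, was 38.6-fold higher (28.7 to 53.2) at 129 FPKM at night and 3.34 FPKM by day. WEE1, an inhibitory kinase known to follow the clock in the mouse liver, was lower, at 4.497 and 12.103 FPKM, and so was GADD45G (ENSDARG00000019417), at 60.7 and 170 FPKM. Over 18 genes of arrest and p53 response, 2 were higher and 2 lower, with a median of -0.05.

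The sterol genes that passed 2-fold were lower at night. Of 26 measured genes of cholesterol synthesis, 9 were at least 2-fold lower and none higher. Below 0 were 25 (6278 of 11753 over all genes), and the median was -0.61. Only 18 of the 26 reached 5 FPKM in both libraries. The rest reached it only by day and had to be below 0. The regulators srebf2 and SREBF1 were at 6.202 and 28.6 FPKM and at 9.06 and 28.4 FPKM at night and by day. The receptor gene ldlrb (ENSDARG00000026759), which takes up lipoprotein, was 12.7-fold lower (9.15 to 18.1), at 1.53 and 19.4 FPKM. Among the enzymes, MVD was at 2.97 and 12.00 FPKM, LSS at 2.49 and 6.96 FPKM, HMGCS1 at 22.9 and 40.4 FPKM and ACAT2 at 21.4 and 21.4 FPKM. Fatty acid synthesis did not go with them: 1 of 20 genes was lower, ACLY (ENSDARG00000099079, 27.2 and 65.7 FPKM), and the median was -0.04.

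Some enzymes of glycolysis were lower at night. Of 42 genes, 7 were at least 2-fold lower and 2 higher, with a median of -0.26. ENO1 (ENSDARG00000022456) was at 116 and 295 FPKM, ALDOC (ENSDARG00000019702) at 179 and 436 FPKM, PKM (ENSDARG00000099730) at 90.3 and 191 FPKM and LDHA at 59.7 and 131 FPKM. PFKFB4, which sets the level of the activator of phosphofructokinase, was 3.72-fold lower (80.2 and 298 FPKM), whereas PFKM (ENSDARG00000060797), a phosphofructokinase, was 2.61-fold higher (96.3 and 36.8 FPKM) and the glucose carrier slc2a3a was at 37.4 and 14.3 FPKM. Of 66 nuclear genes of oxidative phosphorylation, 3 were at least 2-fold lower and none higher, with a median of -0.18, a share close to the 2.96% over all genes. The 3 were SDHA (43.4 and 121 FPKM), SDHB (23.8 and 82.9 FPKM) and CYC1 (64.2 and 134 FPKM). Of 38 proteasome genes, 36 were below 0, beside 6278 of 11753 over all genes, with a median of -0.29, and 3 passed 2-fold, beside 5.34% of all genes. PSME4 (ENSDARG00000087911), an activator of the proteasome, was the lowest at 5.33 and 16.02 FPKM. Of 41 lysosome and autophagy genes none passed 2-fold, and the median was 0.02. Of 23 measured redox genes 0 passed 2-fold, with a median of -0.31. Outside that count, below 5 FPKM in both libraries, NOS2 (ENSDARG00000026925) had 1 read at night and 208 by day. Likewise below 5 FPKM, irg1l had 1 read at night and 54 by day, and both were picked for their size. Of 24 hypoxia genes 2 were at least 2-fold higher and 4 lower, beside 2.38% and 2.96% of all genes, with a median of -0.04. In the glucocorticoid list, DUSP1 and the first PER1 gene, both given above, were the 2 higher of 16, none was lower and the median was -0.04.

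Hormones and receptors were few and mostly rare. Of 18 measured, 3 passed 2-fold upward and 4 downward at night, beside 2.38% and 2.96% of all genes, with a median of 0.25. Only 13 of the 18 reached 5 FPKM in both libraries. All 4 lower genes, CRH, ADRB1, IGF1 and penka, reached it only by day and had to be below 0. The thyroid hormone receptor gene THRA (ENSDARG00000000151) was at 61.7 and 21.9 FPKM, the neuropeptide gene NPY at 50.6 and 18.5 FPKM and the dopamine receptor gene drd4a, whose rat counterpart is a known night gene of the pineal gland, at 40.6 and 18.4 FPKM. The corticotropin-releasing hormone gene CRH was lower at 1.65 and 9.89 FPKM, and ADRB1, an adrenergic receptor, at 3.26 and 8.01 FPKM. ADM2, a calcitonin family peptide, was at 335 and 177 FPKM (0.91).

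Several of the most extreme genes belonged to none of these lists. dre-mir-132-2 (ENSDARG00000090368), a short microRNA locus, had 72 reads at night and 1 by day, a ratio of 100 with a wide interval (17.4 to 4006). MIR124-1 (ENSDARG00000081311) had 7 reads at night and 0 by day. Set against a floor of 3 day reads the ratio was 3.24, which leaves out the counting error of the 7 reads and is no lower limit. cd226, an immune adhesion receptor, had 8.81 and 0.117 FPKM from 108 and 2 reads (75.03-fold, 20.3 to 627), and rtn4rl2a, a relative of the Nogo receptor, 19.1 and 1.22 FPKM. On the lower side were CAMK1G, a calmodulin-dependent kinase, at 16.5 and 133 FPKM, and PLEKHB1 at 2.01 and 24.6 FPKM. PKHD1L1 (ENSDARG00000040004), a large membrane protein, was at 0.139 and 7.31 FPKM, and the cytochrome P450 gene cyp4t8 at 1.18 and 15.2 FPKM.

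Markers of other cells also differed between the pools. All 14 measured erythrocyte genes were below 0, with a median of -0.76, and 5 were at least 2-fold lower. Over all genes, 6278 of 11753 were below 0 and 2.96% at least 2-fold lower. Only 9 of the 14 reached 5 FPKM in both libraries. The rest reached it only by day and had to be below 0. The 23 matched members summed to 214 FPKM at night and 391 FPKM by day, with 5 listed at 0 in both. The listed beta globin symbols hbba1, hbba2, hbbe1.1 and hbbe2 matched no gene and are not in these sums. alas2, the erythroid enzyme of haem synthesis, was at 13.5 and 39.3 FPKM, and hbaa1, an alpha globin, at 88.7 and 139 FPKM. Leukocyte genes leaned the same way, with 19 of 20 below 0, 1 past 2-fold, a median of -0.30 and sums of 728 and 973 FPKM. The endothelial list did not, with 10 of 13 above 0, 2 at least 2-fold higher and sums of 469 and 461 FPKM. Brain neuron genes summed to 923 and 801 FPKM (median 0.18, 1 of 11 higher), habenula genes to 90.3 and 65.3 FPKM (median 0.49, 1 of 6 higher) and glial genes to 1404 and 1666 FPKM (median 0.01, 2 of 16 higher). Pigment cell genes summed to 189 and 149.7 FPKM (median 0.21, 1 of 8 higher) and skin genes to 414 and 474 FPKM (median -0.14, 0 of 9 past 2-fold). Muscle genes summed to 32.3 and 38.9 FPKM (1 of 2 lower), bone genes to 84.3 and 68.3 FPKM (1 of 3 higher) and connective tissue genes to 739 and 655 FPKM (0 of 13 past 2-fold). Of 4 proliferation genes that reached 5 FPKM, CCNE2 was lower, at 2.33 and 9.08 FPKM. The blood markers had medians below 0, as had the sterol, glycolysis and proteasome lists, and their part in these differences was not tested. Leaving out the genes of the blood, vessel, skin, muscle, bone and lens lists kept 11690 of 11753 genes. Among these, 277 had at least a 2-fold higher and 341 a lower level, beside 280 and 348 with the lists. So few genes were left out that the counts could hardly change, and they do not measure the part of other cells.

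**Figure D4:**
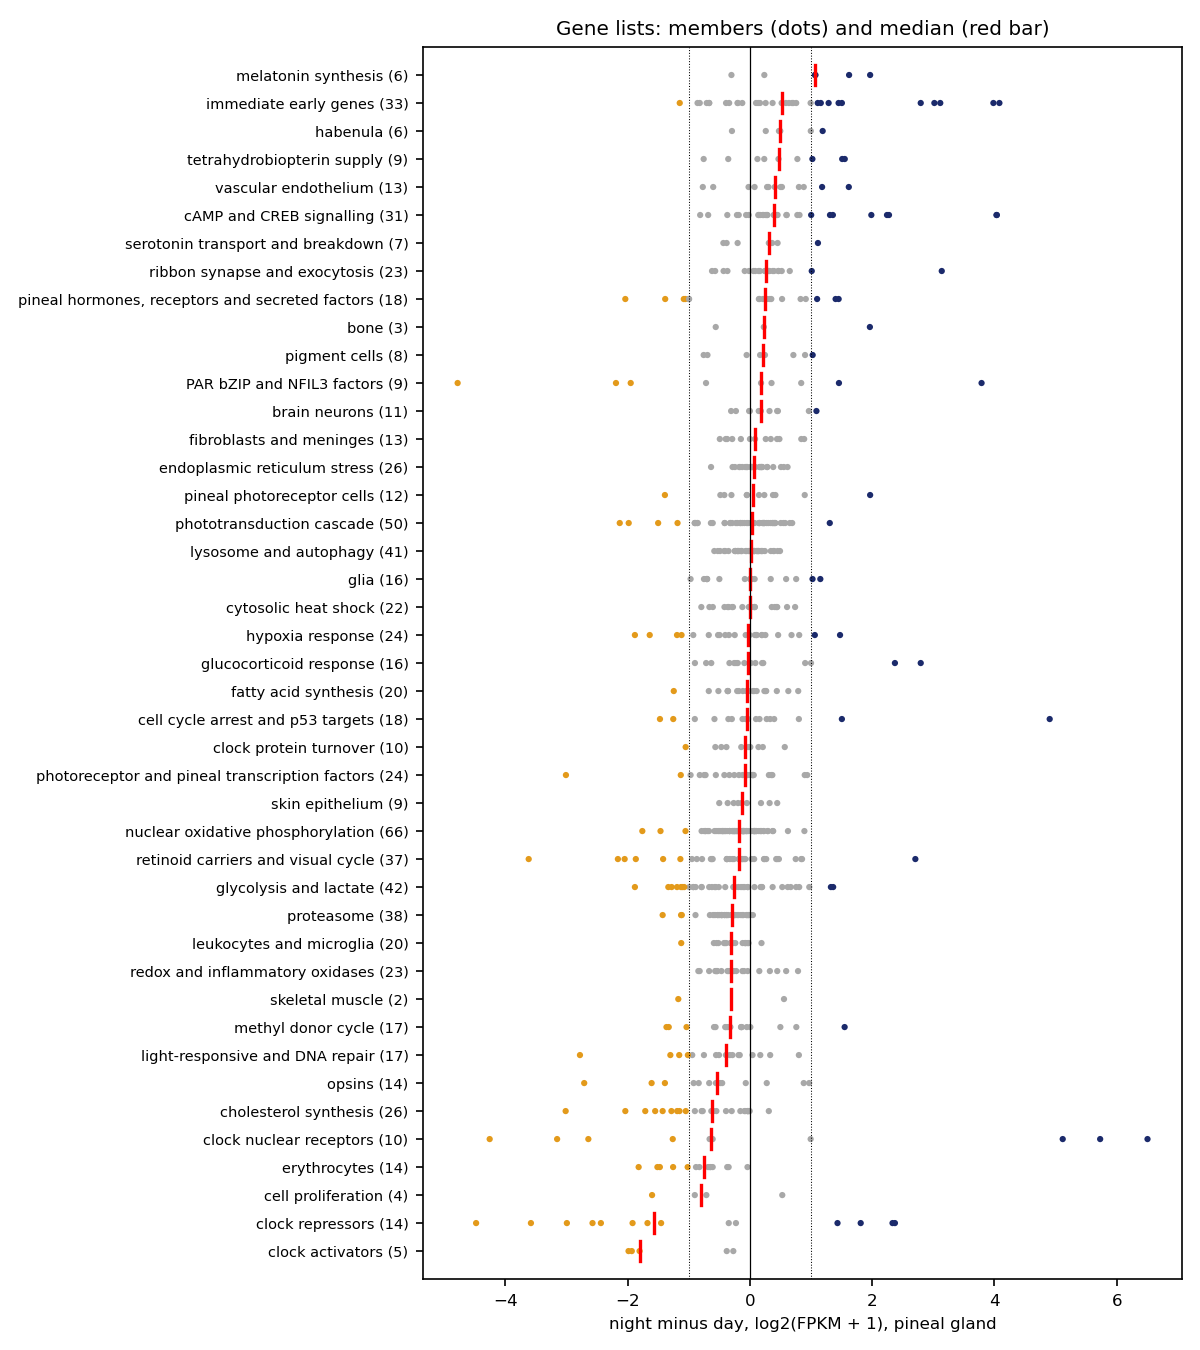
Night minus day difference in the pineal gland, on the log2(FPKM + 1) scale, for each member of 43 gene lists that reached 5 FPKM (number in brackets). Dots are genes, blue where at least 2-fold higher at night, orange where at least 2-fold lower and grey between; red bars are medians, ordered from melatonin synthesis at 1.07 to clock activators at -1.80. Members were measured in 1 pool a side, and a gene may be in more than 1 list.

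The eye gave a second night and day pair from pools of the same line, with its own libraries. There 1433 of 12735 genes were at least 2-fold apart (11.3%), 750 higher at night (5.89%) and 683 lower (5.36%), and in mixed organs 444 of 13055 (3.4%), 102 higher (0.781%) and 342 lower (2.62%). Of the 280 genes higher at night in the pineal gland, 222 reached 5 FPKM in the eye, and 77 of these were also at least 2-fold higher there, which is 34.7% of the 222 and 18.5% of the 417 eye genes higher at night among those measured in both tissues. Of the 348 lower genes, 286 reached 5 FPKM in the eye and 93 were also lower, 32.5% of the 286 and 22.4% of the 416 eye genes lower at night among those measured in both. Opposite by at least 2-fold were 16 and 7 genes. In mixed organs, 153 of the higher genes reached 5 FPKM, and 9 were also higher there, 5.88% of the 153 and 40.9% of the 22 mixed genes higher among the 9229 measured in both, while 10 were opposite. Of the lower genes 241 reached 5 FPKM there, and 31 were also lower, 12.9% of the 241 and 27.7% of the 112 mixed genes lower, while 1 was opposite. Across the 10334 genes measured in both, which share the library's depth within a tissue and are not independent, the pineal and eye differences had a Pearson r of 0.335 and a Spearman rho of 0.203.

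The clock genes and the joined cAMP and immediate early genes differed in how often the eye went the same way. Of the 9 clock genes at least 2-fold higher at night in the pineal gland, 9 were also higher in the eye. Of the 18 lower genes 16 were also lower. These stand beside 34.7% of all higher and 32.5% of all lower pineal genes that were measured in the eye. nr1d4a had 537 FPKM in the night eye and 1.71 FPKM in the day eye, and nfil3-5 had 2.36 and 337 FPKM. The eye differences of these genes were the larger, 7.63 for nr1d4a and -6.65 for nfil3-5, against 6.50 and -4.78 in the pineal gland. BHLHE40 went the other way in size, with 135 and 222 FPKM in the eye (-0.72) beside its pineal difference of -4.48. RORA, the other of the 2 exceptions, was lower in the eye by less than 2-fold (-0.88).

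In contrast, 17 cAMP and immediate early genes higher at night in the pineal gland reached 5 FPKM in the eye, with FOS not counted. Of these, 3 were also at least 2-fold higher there, 3 were at least 2-fold lower, and 10 were below 0. Of the 7 from the cAMP list, 1 was also higher, 0 were at least 2-fold lower and 6 were within 2-fold. For the 10 immediate early genes these counts were 2, 3 and 5, so every opposite gene came from that list. The eye medians of the cAMP and immediate early lists were 0.36 and -0.64, beside 0.10 over all eye genes. Of all 222 genes higher at night in the pineal gland and measured in the eye, 77 were also higher there (34.7%). Another 16 of the 222 were at least 2-fold lower, and 159 of the 222 were above 0 in the eye. Over all 12735 eye genes, whatever their pineal difference, 5.89% were at least 2-fold higher, 5.36% lower, and 5154 were below 0. SIK1 was among the shared genes, at 267 and 84.6 FPKM in the eye, as were NPAS4 and egr4. SIK2 (ENSDARG00000079618) had 12.9 and 15.5 FPKM in the eye and NR4A1 19.9 and 16.9 FPKM, both close to level. DUSP1 was at 76.9 FPKM in the night eye and 127 FPKM in the day eye, below 0 (-0.71). Cholesterol genes likewise differed between the tissues: of 8 that were lower at night in the pineal gland and measured in the eye, 0 were at least 2-fold lower there. The eye list had a median of 0.23, beside 0.10 over all eye genes. For melatonin synthesis, aanat2 had 254 and 160.2 FPKM in the eye (0.66) and GCH1 5.56 and 6.85 FPKM, while aanat1 is not covered. Differences between the tissues were not tested, since each has 1 pool at each time.

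**Figure D5:**
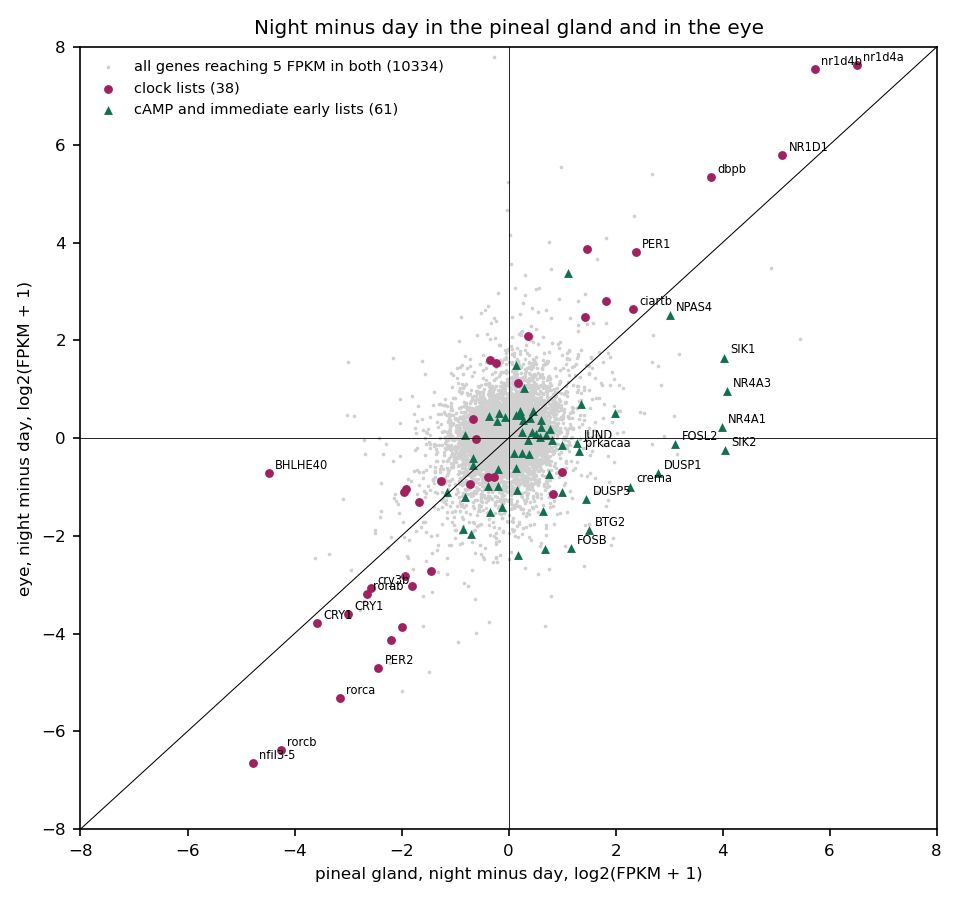
Night minus day difference in the pineal gland (horizontal axis) and in the eye (vertical axis) on the log2(FPKM + 1) scale, for 10334 genes that reached 5 FPKM in both tissues. Purple circles are the 38 clock genes and green triangles 61 genes of the cAMP and immediate early lists; the line marks equal differences. Most clock genes with large differences lie near or beyond the line, while SIK2, NR4A1, FOSL2, DUSP1 and crema lie to the right near or below the zero line of the eye.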

How the data were processed

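Poly-A RNA of 6 pooled samples was sequenced, and the authors deposited 1 table of FPKM values for 32105 genes. Per the submitters' processing notes, FastQC, STAR 2.3.0e, Subread featureCounts and DESeq2 were used with the danRer10 genome. Its annotation release was not given in the sources used here. Columns of tissue means (3) were not used. Symbols were found for 26269 genes.

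The reads behind the FPKM values were recovered for 27232 of 27233 genes above 0 from the steps between low values, and 99.4% of 146167 values were rebuilt within a relative 1e-06. They make up 99.5% to 99.6% of each library's total, may be reads or fragments, and a factor common to all values could go unseen. Night and day were compared on log2(FPKM + 1) for genes that reached 5 FPKM in 1 or both pineal libraries, and called at 2-fold by size. Intervals are exact 95% Clopper-Pearson intervals for the ratio of reads and cover counting error only. PCR copies are not independent molecules. With 1 library in each group no test was made. The 15 highest and 15 lowest genes with a symbol that is no clone name were named, with members of 43 gene lists; a few results are not reported here. The members and lists were chosen with earlier results of these data known, and 10 further lists after their values were seen. Alternatives were the pseudocount, the level threshold, the scaling and the interval. Recovery was checked on simulated data. Promoter, miRNA and protein sequences were not used here. Analyses ran in Python 3.11.15 with numpy 2.4.6, pandas 2.3.3 and scipy 1.17.1.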

Additional observations from a re-analysis of the deposited data

Results flagged for a closer look

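Differences between night and day that were at least 2-fold in both tissues and opposite in sign were found for 6 genes among the 30 named ones and the members of the 43 lists. Over all genes measured in both tissues, 16 that were higher and 7 that were lower at night in the pineal gland met this description, the 6 included. The genes id2b and FOS, given further below, are among those outside the named genes and lists. Each tissue has 1 pool at each time, so the difference between tissues was not tested.

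Of the 6, 2 genes were lower at night in the pineal gland and higher in the eye. ankrd33ab (ENSDARG00000002508) was at 4.07 FPKM at night and 39.8 FPKM by day in the pineal gland (-3.01), against 12.12 and 3.48 FPKM in the eye (1.55). CYP27C1 (ENSDARG00000092660), the vitamin A2 enzyme, was at 27.6 and 127 FPKM in the pineal gland (-2.16) and at 25.3 and 7.41 FPKM in the eye (1.64).

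The other 4 had their higher pineal level at night and their higher eye level by day. Of the immediate early genes, FOSB (ENSDARG00000055751) was at 6.71 and 2.45 FPKM in the pineal gland (1.16) and at 9.59 and 49.1 FPKM in the eye (-2.24). BTG2 (ENSDARG00000020298), an antiproliferative gene, was at 66.7 and 22.8 FPKM (1.50), against 43.2 and 162 FPKM in the eye (-1.88). DUSP5 (ENSDARG00000019307), a phosphatase of MAP kinases, was at 36.7 and 12.8 FPKM (1.45), against 24.2 and 58.8 FPKM in the eye (-1.25). plvapb (ENSDARG00000045003), a gene of fenestrated endothelium, was at 26.3 and 11.04 FPKM (1.18), against 6.25 and 15.9 FPKM in the eye (-1.22).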

How the results depend on the processing

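Counts past 2-fold moved by over 1.5 times where low levels were treated differently. A pseudocount of 5 FPKM gave 153 higher and 172 lower genes, beside 280 and 348. A threshold of 20 FPKM gave 155 and 172, and thresholds of 1 FPKM and none gave 451 and 451 higher genes. Requiring the interval to lie past 2-fold gave 210 lower genes. A lower threshold tests more genes and a higher one fewer by construction. A pseudocount of 0.1 (344 and 444) stayed within 1.5 times. So did rescaling by the median ratio (310 and 327), by totals (298 and 334) or by the upper quartile (287 and 341). Leaving out genes of under 20 reads or 200 bases (266 and 343) or the listed markers of other cells (277 and 341) did too. The last 2 were chosen after seeing the data. The share of called genes that were higher stayed between 43.7% and 48.7%. The median of the nuclear receptors turned to 0.17 at 20 FPKM, and that of 2 muscle genes to 0.64 at 1 FPKM and 0.20 without a threshold, with other members counted. Of 145 list genes past 2-fold, 102 still passed with a pseudocount of 5 FPKM and 143 to 145 with a pseudocount of 0.1 and the other scalings. No paired analysis was possible because each group has 1 library and no replicate number. At 7949224 and 11045259 reads, short and rare genes have wide intervals.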

Other observations

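Further gene groups were chosen after their values were seen, so their counts are descriptions. Genes that process ribosomal RNA and assemble ribosomal subunits included 8 of 95 measured that were at least 2-fold lower at night and none higher, beside 2.96% lower over all genes. Of the 95, 88 were below 0, beside 6278 of 11753 over all genes, and the median was -0.53. BYSL (ENSDARG00000001057), a factor of the small subunit, was at 5.27 FPKM at night and 19.8 FPKM by day, and the helicase gene DDX21 at 20.3 and 43.7 FPKM. The 90 cytosolic ribosomal protein genes themselves were level, with none past 2-fold and a median of -0.01. Of 8 subunits of the chaperonin, which folds actin and tubulin, 1 was at least 2-fold lower and 7 were below 0. The 1 that passed was TCP1, at 54.4 and 117 FPKM. In the tricarboxylic acid cycle 26 of 29 genes were below 0 and 5 at least 2-fold lower. For this list and the chaperonin the base is again 6278 of 11753 genes below 0 and 2.96% lower. One of the pyruvate carboxylase genes with the symbol PC (ENSDARG00000051939) was at 1.72 and 13.4 FPKM, the other (ENSDARG00000098766) at 53.8 and 60.4 FPKM.

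Among 27 genes of Notch signalling and the ID factors, 7 had a night level at least 2-fold higher and 1 at least 2-fold lower. Over all genes 2.38% were higher and 2.96% lower. The median of the 27 was 0.38. DTX4, a regulator of Notch, was at 75.7 and 11.01 FPKM, ID3 at 239 and 78.5 FPKM, id2b at 242 and 84.5 FPKM and the Notch target HEY1 at 61.9 and 24.7 FPKM. The ligand gene jag2b was lower, at 31.1 and 72.2 FPKM, and ID1 was level at 317 and 316 FPKM. In the eye id2b was at 8.55 FPKM at night and 31.3 FPKM by day, opposite to its pineal difference.

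Glutathione transferases had 4 of 16 genes at least 2-fold lower at night and none higher, with a median of -0.0013. Of the 4, gsto1 and gsta.2 reached 5 FPKM only by day and had to be below 0. Genes of carotenoid and retinoid dehydrogenation had 8 of 29 lower and 2 higher, with a median of -0.38. These counts stand beside 2.96% lower and 2.38% higher over all genes. Of 272 microRNA loci, 19 reached 5 FPKM, 5 of them at least 2-fold higher and 2 lower, while 204 were listed at 0 in both pineal libraries. A short locus can reach 5 FPKM on few reads, as MIR124-1 did with 7 at night. Libraries of poly-A RNA do not measure the mature microRNAs. Among single genes, KERA, the keratan sulphate proteoglycan keratocan, was at 18.8 FPKM at night and 127 FPKM by day, and in the eye at 25.3 and 266 FPKM. FOS (ENSDARG00000031683) is missing from the immediate early counts, since that list held the symbol fosab, which matched no gene. It was at 23.2 and 5.28 FPKM in the pineal gland, and in the eye at 57.8 FPKM at night and 243 FPKM by day.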
